A study of Mus musculus with 12 samples.

Results

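The vault RNA gene Vaultrc5, the 3 protein genes of the vault particle (Mvp, Tep1 and Parp4) and 3 genes for proteins known to bind or modify vault RNA (Ssb, Nsun2 and Srsf2) were followed by name. All 7 symbols were found among the 55450 genes of the deposited count table, each in 1 row. The mice were males, 7 to 9 weeks old, and total RNA of their brains and livers was depleted of ribosomal RNA before sequencing. In each tissue there were 3 wild-type libraries (Vaultrc5+/+, with "flx" in their titles) and 3 knockout libraries (Vaultrc5-/-). The study asked whether mice can do without this RNA. Strain, other alleles and whether same-numbered brain and liver libraries share an animal are not given in the labels, so the p-values measure only the spread between these libraries. After a filter on low counts, 6 of the 7 genes were tested for the knockout effect in brain, where Vaultrc5 had too few counts. In liver Vaultrc5 passed the filter through wild type alone, so there too only the 6 protein genes are counted.

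Vaults are large hollow ribonucleoprotein particles of the cytoplasm. Their shell is built from many copies of the major vault protein, encoded by Mvp, and encloses the ADP-ribosyltransferase encoded by Parp4, the telomerase-associated RNA-binding protein encoded by Tep1, and short vault RNAs made by RNA polymerase III. The La protein, encoded by Ssb, binds the uridine-rich 3′ end of new polymerase III transcripts, NSUN2 methylates cytosines in tRNAs and vault RNAs, and the splicing factor SRSF2 binds vault RNA in a way that depends on that methylation. What vaults do in brain or liver is not settled.

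Upstream sequences are shown for 3 of the protein genes: Mvp and Parp4, whose levels moved together across the brain libraries, and Ssb, whose level on TMM scaling lay within 44.1 to 50.1 CPM in all 12 libraries (CPM being the count scaled to the effective library size). They are RefSeq sequences of build GRCm38.p6, taken from the 250 bases before each start site, written 5′ to 3′ on the strand of the gene and cut where an annotated exon begins. Capitals mark matches on either strand to GGGCGG (GC box) and GAAANNGAAA (core of the interferon-stimulated response element). The Mvp stretch is chr7:127014622-127014844 on the minus strand, the Parp4 stretch chr14:56575426-56575618 on the plus strand and the Ssb stretch chr2:69861312-69861561 on the plus strand.
Mvp: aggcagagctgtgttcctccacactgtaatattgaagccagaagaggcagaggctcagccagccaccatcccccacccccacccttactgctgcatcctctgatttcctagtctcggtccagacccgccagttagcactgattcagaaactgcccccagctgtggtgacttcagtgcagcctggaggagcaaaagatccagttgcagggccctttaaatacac
Parp4: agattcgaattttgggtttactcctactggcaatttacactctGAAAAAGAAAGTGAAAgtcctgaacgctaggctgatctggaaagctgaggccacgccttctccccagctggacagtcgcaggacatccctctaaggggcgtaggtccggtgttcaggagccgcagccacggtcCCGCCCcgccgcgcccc
Ssb: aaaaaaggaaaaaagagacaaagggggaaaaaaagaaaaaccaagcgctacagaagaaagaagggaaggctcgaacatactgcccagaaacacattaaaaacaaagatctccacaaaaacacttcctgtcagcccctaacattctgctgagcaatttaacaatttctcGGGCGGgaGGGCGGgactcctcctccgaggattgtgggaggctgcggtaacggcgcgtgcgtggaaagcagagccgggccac
The window was found for 5 of the 7 genes. Parp4 had 2 matches to GAAANNGAAA that overlap each other, 150 and 144 bases before its start, and no match was found in the other 4 windows, where 3.0% of 32851 promoter windows hold one. GC boxes, held by 32.7% of windows, were found 2 times for Ssb, 5 times for Srsf2 and 1 time each for Parp4 and Mvp, the Mvp match lying outside the printed stretch. The Mvp window held 3 CpG dinucleotides, an observed-to-expected ratio of 0.15 against a median of 0.37 over all windows, while the ratio was 0.73 for Parp4, 0.79 for Ssb, 0.96 for Nsun2 and 1.09 for Srsf2. These matches describe letters in a window and no binding was measured.

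Vaultrc5 RNA was found in every wild-type library and in no knockout library. The gene (ENSMUSG00000065145.1, annotated as a miscellaneous RNA of 143 nucleotides, plus strand) lies at 36801866 to 36802008 on chromosome 18 of GRCm38. In wild-type liver the libraries held 33, 39 and 48 counts, and in wild-type brain 4, 1 and 4 counts. All 6 knockout libraries held 0 counts. Wild-type liver was at 2.11 ± 0.358 (SD, n = 3) and wild-type brain at 0.130 ± 0.0768 (SD, n = 3). The liver groups did not overlap, and knockout liver was at least 12.8-fold lower, with 3 counts per library (0.165 CPM on average) taken as the most that a count of 0 allows. No fold is given for brain, because the wild-type mean itself lies at 3 counts per library. On log2(CPM + 1), knockout minus wild type was -1.63 in liver and -0.17 in brain, sizes that the pseudocount sets (-4.45 and -1.13 with a pseudocount of 0.1). A two-sided exact permutation test gave p = 0.1 in both tissues, the smallest p that 3 libraries against 3 allow. In liver, Vaultrc5 passed the filter on low counts through the wild-type libraries alone and could only be called lower in knockout. No result of the test over all genes is therefore given for it. These counts check the labels of the liver libraries, while in brain the depth gives little to check.

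**Figure D1:**
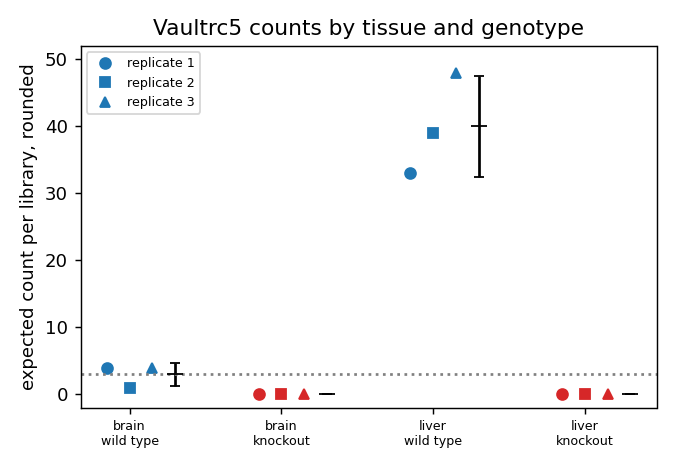
Vaultrc5 count per library (vertical axis) in the 4 groups, with the 3 replicates as separate points, the mean ± SD beside them in black and a dotted line at 3 counts. The wild-type liver libraries sit at 33 to 48 counts, the wild-type brain libraries at 1 to 4, and all knockout libraries at 0.

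Wild-type liver held more Vaultrc5 than wild-type brain. Over the pooled libraries there were 120 counts in liver and 9 in brain, a ratio of 16.5 per effective library size (exact 95% interval 8.40 to 36.9, counting error only). Scaled by library totals alone, the ratio was 9.19 (4.68 to 20.6). The difference on log2(CPM + 1), brain minus liver, was -1.46 with an exact two-sided permutation p of 0.1.

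For the 3 protein genes of the vault particle, no difference between genotypes passed the test in either tissue. Mvp, the shell protein gene, was at 15.8, 6.56 and 8.54 CPM in the wild-type brain libraries 1 to 3 and at 16.1, 7.89 and 11.0 CPM in the knockout brain libraries 1 to 3. The groups overlapped, and the log2 fold change was 0.17 ± 0.38 (SE, 95% interval -0.73 to 1.08, edgeR adjusted p = 1). The sign turned to -0.06 without wild-type library 2 and to -0.12 without knockout library 1. In liver, Mvp stood at 39.7, 42.9 and 50.3 CPM in wild type and at 41.5, 55.2 and 44.7 CPM in knockout. These groups overlapped as well, with a log2 fold change of 0.10 ± 0.14 (SE, 95% interval -0.23 to 0.42, edgeR adjusted p = 0.992). Mvp counts were whole numbers in 5 of 12 libraries, and Mvp shares 346 exonic bases with Pagr1b on the same strand, so part of its reads may have been divided between genes.

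Tep1, whose protein binds vault RNA and was first found with telomerase, was at 7.26, 4.72 and 5.81 CPM in wild-type brain and at 8.74, 5.11 and 6.91 CPM in knockout brain. The brain groups overlapped, with a log2 fold change of 0.22 ± 0.25 (SE, 95% interval -0.37 to 0.81). It moved to 0.03 without knockout library 1 and to 0.41 without knockout library 2. Tep1 in liver was at 36.6, 32.0 and 34.4 CPM in wild type against 37.2, 39.6 and 31.6 CPM in knockout, a log2 fold change of 0.08 ± 0.11 (SE, 95% interval -0.16 to 0.33). Here too the groups overlapped, the lowest value being in knockout library 3 and the highest in knockout library 2.

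Parp4, the vault member of the PARP family, was at 15.6, 5.86 and 11.0 CPM in wild-type brain and at 13.5, 7.40 and 9.44 CPM in knockout brain. Both the highest and the lowest value were wild type, and the log2 fold change was -0.10 ± 0.38 (SE, 95% interval -1 to 0.79). It turned to 0.25 without wild-type library 1 and to 0.09 without knockout library 2. Parp4 in liver was at 36.8, 38.0 and 41.1 CPM in wild type and at 40.6, 42.8 and 36.9 CPM in knockout. The liver groups overlapped, with a log2 fold change of 0.06 ± 0.09 (SE, 95% interval -0.14 to 0.26).

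Of the genes for RNA-binding and RNA-modifying proteins, Ssb had the narrowest range on TMM scaling. Its 6 brain libraries ran from 46.5 to 50.1 CPM and its 6 liver libraries from 44.1 to 49.8 CPM, with genotypes overlapping in both tissues. On library totals these ranges were 61.7 to 68.4 CPM in brain and 32.2 to 38.3 CPM in liver. The knockout log2 fold change was -0.02 ± 0.07 (SE, 95% interval -0.20 to 0.15) in brain and 0.02 ± 0.09 (SE, 95% interval -0.19 to 0.22) in liver, where its sign changed with the scaling (-0.03 on library totals).

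Srsf2 was at 68.4, 54.7 and 63.6 CPM in wild-type brain and at 63.5, 60.4 and 64.7 CPM in knockout brain. In liver it was at 136, 121 and 131 CPM in wild type and at 135, 118 and 129 CPM in knockout. Genotypes overlapped in both tissues, with log2 fold changes of 0.01 ± 0.11 (SE, 95% interval -0.24 to 0.26) in brain and -0.02 ± 0.09 (SE, 95% interval -0.22 to 0.19) in liver.

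Nsun2, the cytosine methyltransferase gene, was the 1 protein gene of the set whose liver groups did not overlap. Its wild-type liver libraries were at 82.6, 89.7 and 91.6 CPM and its knockout liver libraries at 77.6, 77.2 and 79.2 CPM. All knockout values lay below all wild-type values, yet the log2 fold change of -0.16 ± 0.07 (SE, 95% interval -0.34 to 0.01) did not pass the test, with an unadjusted edgeR p of 0.0607 and an adjusted p of 0.992. Groups did not overlap for 9.62% of all genes tested in liver and for 4.23% in brain. The sum of 4 red cell markers did not overlap in liver either, with wild type at 13.4 to 30.9 CPM and knockout at 34.4 to 50.1 CPM. Of 10 microglia and macrophage markers, 0 were called in liver, but 4 were higher in knockout at an unadjusted edgeR p under 0.05 (P2ry12, Adgre1, Cd68 and Ptprc), the list median was 0.51 on the log2 scale against 0.01 over all genes, and the summed levels overlapped (164 to 219 CPM in the wild-type libraries, 186 to 370 CPM with knockout). The part of these cells in the Nsun2 values was not tested. In brain, Nsun2 was at 34.7, 38.5 and 40.3 CPM in wild type and at 37.9, 40.2 and 34.1 CPM in knockout, and the groups overlapped (log2 fold change -0.02 ± 0.10, SE).

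**Figure D2:**
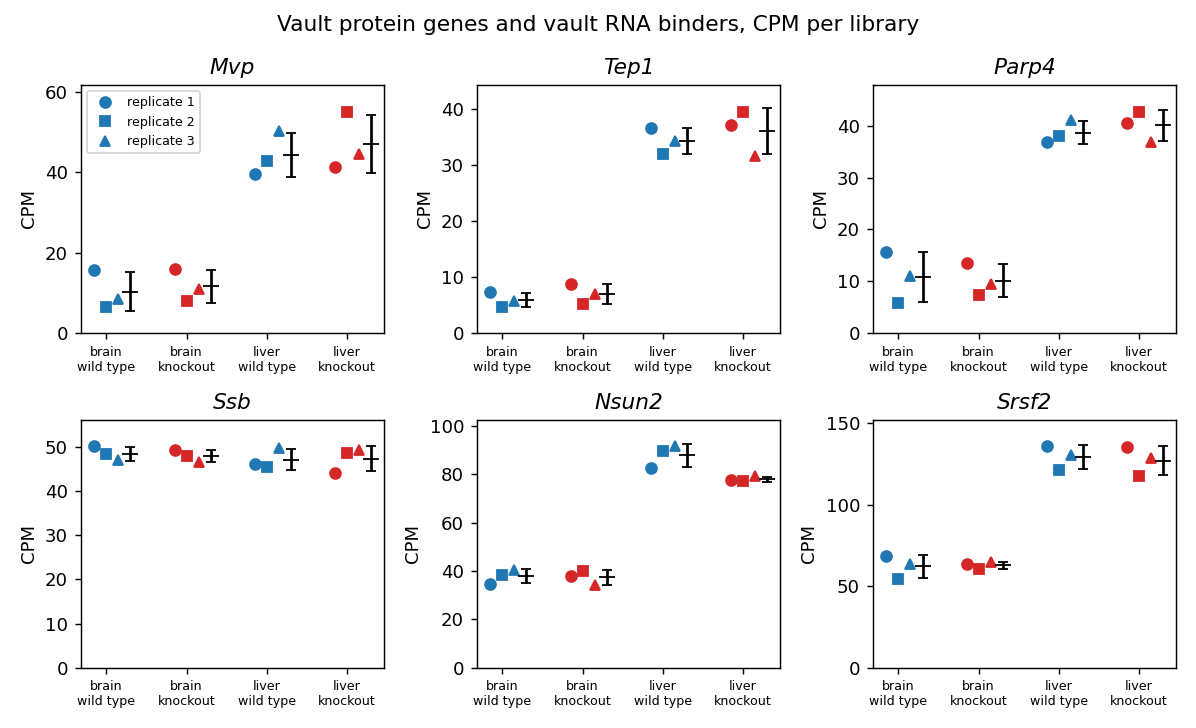
CPM (vertical axis, from 0) of the 6 protein genes in each library of the 4 groups, with replicates as separate points and mean ± SD in black. Genotypes overlap in every panel except Nsun2 in liver, where knockout lies at 77.2 to 79.2 CPM and wild type at 82.6 to 91.6 CPM, and every gene but Ssb is lower in brain on this scale.

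By edgeR's quasi-likelihood test with Benjamini-Hochberg adjustment, 0 of the 6 protein genes in brain and 0 of 6 in liver passed an adjusted p of 0.05. The share of all tested genes that passed was 0% in brain (0 of 18075) and 0% in liver (0 of 15329), with 122 and 536 genes at an unadjusted p under 0.05. DESeq2 called 0 genes in brain and 10 in liver, none of them a protein gene of this set. The 95% intervals of the 6 protein genes lay inside a 2-fold change in liver. In brain those of Tep1, Ssb, Nsun2 and Srsf2 did so, while that of Parp4 reached a 2-fold decrease and that of Mvp held a 2-fold increase. The difference of the knockout effect between tissues passed for 0 of the 6 protein genes and for 0% of 20141 genes, with 489 at an unadjusted p under 0.05. It ranged from -0.16 (Tep1 and Nsun2) to 0.14 (Parp4) on the log2 scale. DESeq2 called 1 gene in that comparison, which was none of the protein genes.

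In brain, the vault protein genes varied together between libraries of one genotype, and Srsf2 in part with them. Each of Mvp, Tep1 and Parp4 was highest in library 1 and lowest in library 2 of wild type, and again highest in library 1 and lowest in library 2 of knockout. Within the brain groups the coefficient of variation was 47.0% (wild type) and 35.4% (knockout) for Mvp, 44.9% and 30.8% for Parp4, and 21.5% and 26.2% for Tep1, against 11.2% and 3.55% for Srsf2, 7.59% and 8.18% for Nsun2, and 3.27% and 2.86% for Ssb. With the mean of each group taken off log2(CPM + 1), Pearson's r over the 6 brain libraries was 0.96 for Mvp with Tep1, 0.94 for Mvp with Parp4 and 0.92 for Tep1 with Parp4. Srsf2, lowest in library 2 of both genotypes, gave 0.91 with Parp4, 0.80 with Mvp and 0.75 with Tep1, while Ssb gave 0.48 to 0.65 and Nsun2 -0.58 to -0.42 with these 3 genes. Over the 6 liver libraries the 3 pairs of vault protein genes gave 0.25, 0.74 and 0.61. These are descriptions over few libraries that share depth and composition. Many genes moved with the brain libraries: 12.2% of 8391 genes had an r of at least 0.9 with Mvp there, 9.49% with Tep1 and 9.88% with Parp4, against 3.48% with Ssb, 3.08% with Srsf2 and 2.77% with Nsun2.

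**Figure D3:**
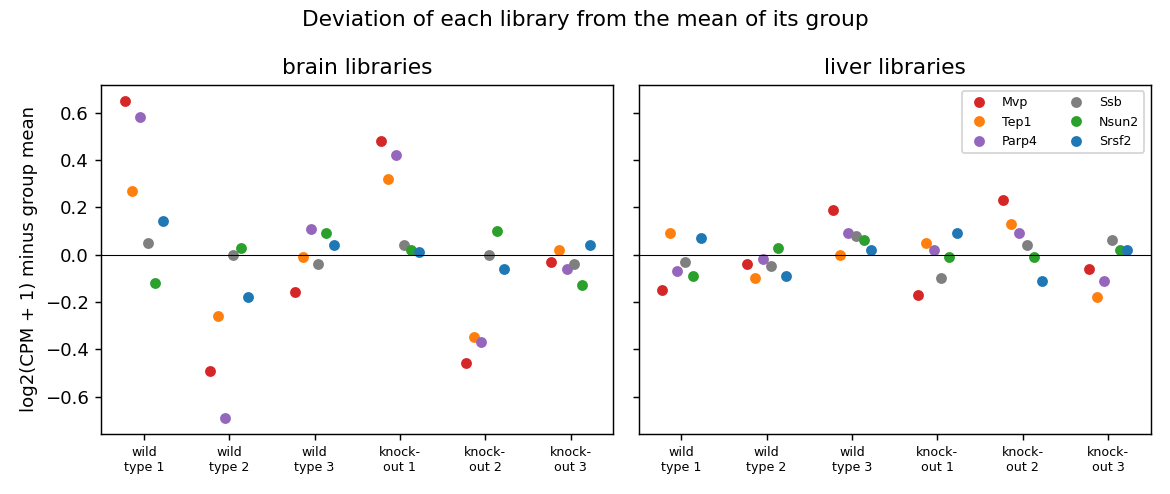
Deviation of log2(CPM + 1) from the mean of its group (vertical axis) for 6 genes, 1 column per library, brain on the left and liver on the right. In brain, Mvp, Tep1 and Parp4 lie above 0.2 in library 1 and below -0.2 in library 2 of both genotypes, while Ssb stays within 0.05 of 0.

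Some cell type markers moved with the same brain libraries and others did not. The summed level of 4 neuron markers was 2538, 3340 and 2574 CPM in wild-type brain libraries 1 to 3 and 2805, 3177 and 2808 CPM in knockout libraries 1 to 3, so it was lowest where Mvp was highest in each genotype. The sum of 4 astrocyte markers ran the same way (2684, 3848 and 3283 CPM, then 2673, 3708 and 3256 CPM), as did that of 10 microglia and macrophage markers (77.2, 123 and 108 CPM, then 86.4, 128 and 106 CPM), with Clec4f, a Kupffer cell marker, at 0 in all 6. Most of the astrocyte sum was Slc1a2 (on average 3011 CPM in wild-type brain and 3024 CPM in knockout brain), so its order is mainly that of 1 gene. The sum of 5 oligodendrocyte markers did not keep this order (2450, 1492 and 5130 CPM, then 1778, 2773 and 1645 CPM), nor did that of 8 endothelial markers (107, 116 and 105 CPM, then 105, 115 and 119 CPM). The sum of 5 choroid plexus and ependyma markers was at 27.4, 5.62 and 51.9 CPM, then 54.3, 9.52 and 8.71 CPM, so it was highest with Mvp in knockout library 1 but not in wild-type library 1. The sum of 4 red cell markers was low (wild type at 4.48 to 7.34 CPM, knockout at 4.06 to 9.29 CPM) and, like Mvp, highest in library 1 of both genotypes, but lowest in library 3. The sum of 4 stellate cell and fibroblast markers was highest with Mvp in wild-type library 1 and lowest in wild-type library 2 (53.0, 43.3 and 46.7 CPM), while in knockout it was lowest in library 1 (38.5, 43.2 and 54.8 CPM). In bulk tissue, fewer cells of a type and less RNA per cell cannot be told apart, and the part of these cells in the levels of Mvp, Tep1 and Parp4 was not tested. In liver, the microglia and macrophage sum was highest in knockout library 2 (370 CPM, the other 5 libraries at 164 to 226 CPM), the library with the highest Mvp, Tep1 and Parp4, where the sum of 4 hepatocyte markers was lowest (5.49e+04 CPM, the other 5 libraries at 6.73e+04 to 8.82e+04 CPM), and their part was not tested. The markers went with the tissue labels, as neuron markers summed to at most 34.6 CPM in liver and hepatocyte markers to at most 1.20 CPM in brain.

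The genes whose pattern over the 12 libraries was most like each protein gene, with group means taken off, were named by rule among 8392 genes. For Mvp they were Hnrnpm (r = 0.98) and Tmtc4 (0.97), for Tep1 Trabd (0.97) and Itga3 (0.96), and for Parp4 Cdk5rap2 (0.99) and Fnbp1 (0.99). The likest genes were Pdcd11 (0.93) and Ctps2 (0.92) for Ssb, Ppp1r2 (0.94) and Bnip3l (0.92) for Nsun2, and Gm48225 (0.96) and Atad3a (0.93) for Srsf2. Vaultrc5, below the level set for this search, was left out of it, and none of the 6 protein genes was among another's likest pair. The pooled r hides unequal tissues: for Mvp, Tep1 and Parp4 the likeness was closer in brain (0.98 to 1) than in liver (0.73 to 0.96), and for Ssb closer in liver (0.96 and 0.99) than in brain (0.78 and 0.72).

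Between tissues, most of the protein genes of the set were lower in brain on TMM scaling. In wild type, 5 of the 6 protein genes were called lower in brain than in liver, where 34.7% of all genes tested were lower in brain, 43.9% higher and 78.6% called either way. In knockout, 5 of 6 were lower in brain, against 35.2% of all genes, with 43.5% higher and 78.7% called. Over all genes the median log2 fold change was 0.21 in both genotypes, and that of the 6 protein genes was -1.52 in wild type and -1.53 in knockout. With the sign left out, the median over all genes was 1.55 in wild type and 1.54 in knockout. The set as a whole thus differed between tissues by an ordinary amount. Vaultrc5 is left out of these counts, since it passed the filter on low counts through its liver libraries alone and could only be called lower in brain. For the wild-type fold changes of these genes the difference from that all-gene median is also given, because it barely depends on the scaling. The log2 fold change of brain over liver for Tep1 was -2.53 ± 0.18 (SE, edgeR adjusted p = 5.71e-06) in wild type, -2.74 relative to the median, and -2.39 ± 0.21 in knockout. Mvp followed with -2.10 ± 0.31 (SE, -2.31 relative to the median) in wild type and -2.02 ± 0.26 in knockout. Parp4 stood at -1.83 ± 0.31 (SE, -2.04 relative to the median) in wild type and at -1.99 ± 0.22 in knockout. On TMM scaling all 6 brain libraries lay below all 6 liver libraries for these 3 genes, and for Nsun2 and Srsf2 as well. The share of all genes separated in this way was not computed.

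The RNA binders lay closer to the all-gene median. Nsun2 was at -1.21 ± 0.10 (SE, -1.42 relative to the median) in wild type and -1.07 ± 0.09 in knockout, and Srsf2 at -1.05 ± 0.12 (SE, -1.26 relative to the median) and -1.02 ± 0.10. Ssb did not differ beyond its spread, with 0.05 ± 0.09 (SE, 95% interval -0.17 to 0.26, edgeR adjusted p = 0.647, -0.16 relative to the median) in wild type and 0.01 ± 0.09 in knockout. The scaling matters here. With library totals in place of TMM, the all-gene median moved to 1.05 in wild type and 1.08 in knockout, and the split of called genes from 8275 higher and 6542 lower to 11635 and 3997 in wild type, and from 8178 and 6611 to 11668 and 3871 in knockout. On that scale Tep1 (-1.69 in wild type and -1.51 in knockout), Mvp (-1.26 and -1.14) and Parp4 (-0.98 and -1.11) were still called lower in brain. Srsf2 was no longer called (-0.21, edgeR adjusted p = 0.170 in wild type, and -0.15, adjusted p = 0.258 in knockout). Nsun2 was called in wild type (-0.37, adjusted p = 0.0124) but not in knockout (-0.19, adjusted p = 0.124), and Ssb was called higher in brain (0.89 in both genotypes).

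**Figure D4:**
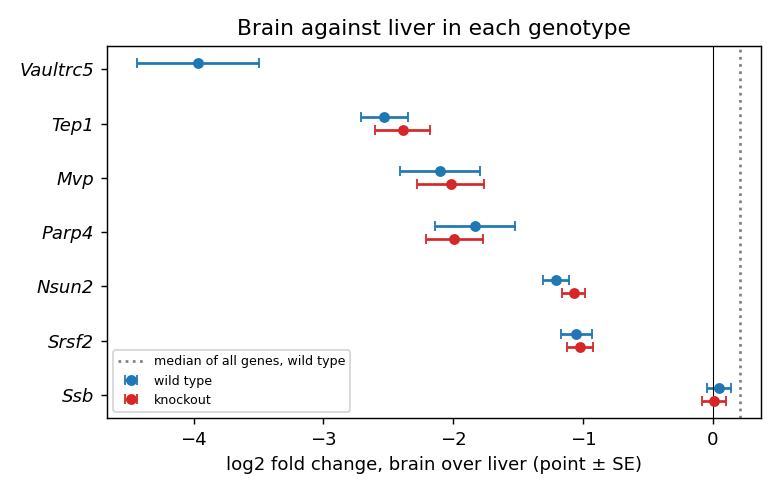
Log2 fold change of brain over liver (horizontal axis, point ± SE from edgeR) for each gene in wild type (blue) and knockout (red), with the all-gene median of 0.21 as a dotted line. Tep1, Mvp and Parp4 lie between -2.53 and -1.83, Nsun2 and Srsf2 near -1, Ssb at 0, and Vaultrc5 has a wild-type value only.

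Levels of different genes were compared as CPM per kilobase of annotated exon. In wild-type brain Ssb (22.4) and Srsf2 (18.5 to 23.1 over the libraries) were highest and overlapped each other, followed by Nsun2 (6.60), and then by Parp4 (1.66), Mvp (1.35), Vaultrc5 (0.906) and Tep1 (0.619), each overlapping the next. In wild-type liver the order was Srsf2 (43.7), Ssb (21.8), Nsun2 (15.3) and Vaultrc5 (14.7), which overlapped, then Parp4 (5.91) and Mvp (5.81), which overlapped, and Tep1 (3.59). Per kilobase, Vaultrc5 thus stood above the 3 vault protein genes in liver and among them in brain. With the longest transcript as the length, Mvp ranked above Parp4 in both tissues and Srsf2 above Ssb in brain. A transcript of 143 nucleotides may be recovered less well than an mRNA, which was not tested.

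Related gene lists placed the set among its families. In the knockout comparisons no gene of the 8 lists was called by edgeR or by DESeq2 in either tissue. By edgeR, an unadjusted p under 0.05 was reached in liver by 1 gene each of the SR protein and small RNA processing lists, and in brain by 0 genes of the lists. Rny3 of the polymerase III list is left out of this count. The smallest unadjusted p in brain was that of Prkra, whose protein partners Dicer, with a log2 fold change of -0.39 ± 0.17, an unadjusted edgeR p of 0.0537 and an adjusted p of 1. In liver it was that of Rny3, a Y RNA, with 31, 19 and 10 counts in wild type and 7, 4 and 8 in knockout and a log2 fold change of -1.59 ± 0.54. Rny3 passed the filter on low counts in liver through wild type alone, so its fold change is a description and its p is not given. For the difference between tissues it was that of Srsf9 (-0.36 ± 0.15, unadjusted edgeR p of 0.0302, adjusted p of 1).

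Between wild-type brain and liver the families were mixed. The counts that follow are for TMM scaling and then for library totals, since the scaling shifted them. Beside them stand the shares over all genes, 43.9% higher and 34.7% lower in brain, or 61.7% and 21.2% on library totals, with 78.6% and 82.9% called either way, and nothing is read from a count near these shares. Of 15 PARP genes, Parp4 included, 5 were higher and 7 lower in brain (8 and 7 on library totals), 12 of 15 called in all, with a list median of -0.34 relative to all genes. The lowest in brain were Parp9 (-4.69 ± 0.12) and Parp14 (-4.34 ± 0.13), both known as interferon-induced, and the highest were Parp8 (2.69 ± 0.19) and Parp6 (2.30 ± 0.13). Of 17 telomerase and telomere genes, 5 were higher and 7 lower (10 and 3 on library totals), from Tert, the catalytic subunit (-3.05 ± 0.34), and the H/ACA protein gene Nop10 (-1.33 ± 0.14) to Pot1a (1.28 ± 0.29) and Terf2 (0.86 ± 0.11), which encode proteins bound to telomeres. Both human vault RNA partners of the list were lower in brain under either scaling: Sqstm1, the autophagy receptor (-1.18 ± 0.14), and Eif2ak2, the double-stranded RNA kinase (-2.51 ± 0.18).

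Of 8 La-related and Ro genes, Ssb included, 2 were higher and 4 lower in brain (4 and 4 on library totals). Trove2, for the Ro protein that binds Y RNAs, was at 67.2 ± 6.91 CPM (SD, n = 3) in wild-type brain and 7.96 ± 1.75 CPM in wild-type liver (log2 fold change 3.08 ± 0.18), while Larp1b (-2.67 ± 0.11) and Larp4 (-1.46 ± 0.10) were lower in brain. Of 10 genes for cytosine-5 RNA methylation, Nsun2 included, 2 were higher and 5 lower (5 and 3 on library totals), among them Nsun7 (3.17 ± 0.37), Alyref (0.46 ± 0.15), Ybx1 (-1.78 ± 0.09) and Nsun4 (-1.59 ± 0.18). Nsun7 passed the filter on low counts through brain alone, so its place among the higher genes is a description. Alyref lost its call without any single library except wild-type liver library 2 (0.33 to 0.54 over the 6 fits, edgeR adjusted p from 0.0251 to 0.0853). Of 11 SR protein genes, Srsf2 included, 2 were higher and 4 lower (7 and 0 on library totals), with Srsf7 at 0.40 ± 0.10, Srsf5 at -0.93 ± 0.12 and Srsf6 at -0.86 ± 0.11. Of 10 small RNA processing genes, 6 were higher and 2 lower (9 and 0 on library totals), so 8 of 10 were called where 78.6% of all genes were, with Drosha at 2.00 ± 0.10, Ago2 at 0.92 ± 0.11, Prkra at -0.80 ± 0.16 and Dicer1 at -0.55 ± 0.10.

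Among other short polymerase III transcripts, the Y RNAs had the opposite tissue pattern to Vaultrc5. Rny1 was at 61.6, 37.5 and 34.5 CPM in wild-type brain and held 9, 7 and 3 counts in the wild-type liver libraries. Rny3 was at 34.5, 21.2 and 25.2 CPM in wild-type brain and at 1.75, 0.946 and 0.524 CPM in wild-type liver. The log2 fold change of brain over liver was 7.04 ± 0.40 for Rny1, 4.66 ± 0.39 for Rny3 and -3.97 ± 0.47 for Vaultrc5. Rny1 and Rny3 passed the filter on low counts through brain alone and Vaultrc5 through liver alone. For these genes the fold change is a description and no test result is given. Rpph1, the RNA of RNase P, was at -0.67 ± 0.21 (edgeR adjusted p = 0.0207), and its sign changed to 0.17 on library totals. Without wild-type liver library 3 it was at -0.51 with an adjusted p of 0.0680. Calls over the 6 rows of this list are not counted, since those higher in brain on TMM scaling were Rny1 and Rny3.

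**Figure D5:**
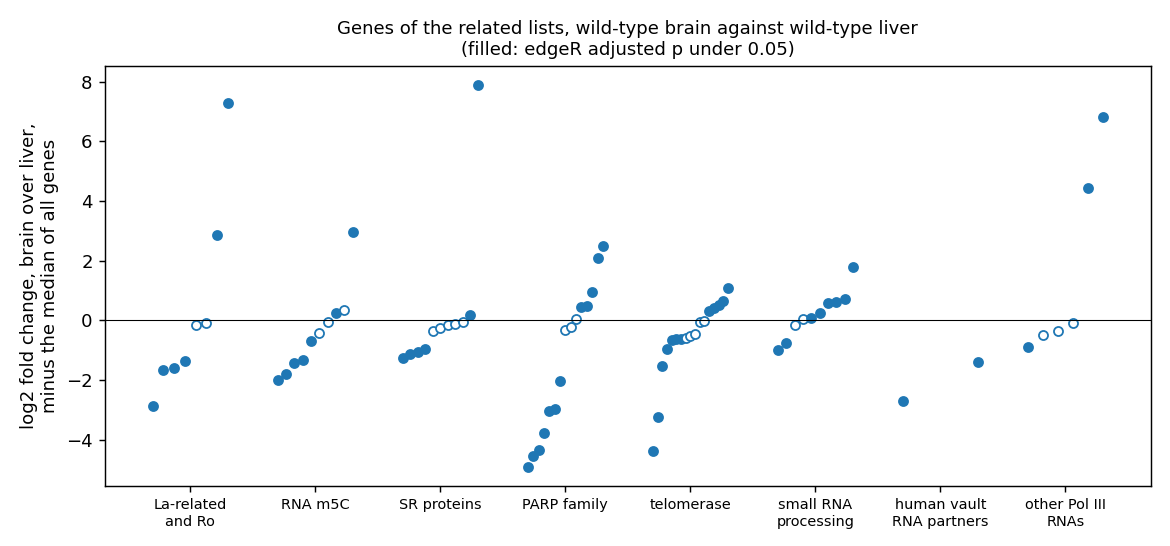
Log2 fold change of wild-type brain over wild-type liver minus the all-gene median (vertical axis) for the genes of the 8 related lists, 1 point per gene, filled where the edgeR adjusted p was under 0.05. Parp9 and Parp14 are at the bottom of the PARP column (-4.91 and -4.55) and the Y RNAs Rny3 and Rny1 at the top of the polymerase III column (4.45 and 6.83). Rny1, Rny3 and Nsun7 passed the filter on low counts through brain alone, so their filled points are descriptions.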

How the data were processed

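Stranded, ribosome-depleted total RNA libraries were sequenced as single-end reads, per the labels' protocols. The values deposited by the authors are expected counts, 1 per gene and library, neither normalized nor pooled. Reads were processed with cutadapt and STAR on build mm10, per the submitters' processing notes; versions, the counter and whether it used strand are not given in the sources used here. Antisense overlaps of Tep1, Parp4, Ssb, Nsun2 and Srsf2 were therefore not resolved. Gene identifiers matched GENCODE M21 for 55450 of 55450 genes, and 0 value columns went unused. Library totals were 14844937 to 18567362 in brain and 23247425 to 27155478 in liver. The intervals on counts and the floor of 3 counts reflect counting error alone, since no molecular identifiers mark PCR copies.

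The expected counts were rounded and tested with edgeR 4.0.16 (R 4.3.3; quasi-likelihood, robust, TMM, filterByExpr with a minimum count of 10 and a minimum total of 15), fitted over all genes with Benjamini-Hochberg adjustment at 0.05, on the 6 libraries of each comparison (12 for the difference between tissues). CPM use TMM effective sizes over 12 libraries (TMM factors 1.31 to 1.38 in brain, 0.708 to 0.769 in liver). The Vaultrc5 level was compared with an exact permutation test on log2(CPM + 1). The scripts were tested on simulated data. No pair of replicates agreed within sampling noise (chi-square at least 27.2 times its degrees of freedom).

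The genes and lists were chosen with earlier results of these data known. The 7 genes are always named. From each list, leaving those 7 aside, the text names all called genes where 4 or fewer were called, otherwise the 2 in each direction with the largest change, no overlap and counts above 3 in every library. Where a comparison called no list gene, the 1 gene of smallest unadjusted p over all lists is named. Likeness used log2(CPM + 1) minus group means, among genes of at least 5 CPM in both tissues. Alternatives were other size factors, filters, DESeq2 1.42.0, robust estimation off, 1 fit over 12 libraries, each library left out, the replicate number as a block, another pseudocount and another gene length. Same-numbered wild-type and knockout libraries deviated together in liver (correlations 0.33, 0.34 and 0.39 over genes). In brain they did so for numbers 1 and 2 (0.75 and 0.71) but not for number 3 (-0.04). The block on the replicate number was run only as an alternative.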

Additional observations from a re-analysis of the deposited data

How the results depend on the processing

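Depth limits Vaultrc5 in brain (1 to 4 counts) and in no other gene of the set. With every library kept, no protein gene of the set was called for the knockout under any alternative. Calls of Vaultrc5 in liver are not compared between settings, since its counts there came from wild type alone. On library totals the sign turned for Ssb in liver (-0.03), in wild type between tissues for Prkra (0.04), Dicer1 (0.29) and Rpph1 (0.17), and in knockout between tissues for Srsf6 (0.09), Srsf5 (0.15), Dicer1 (0.34) and Rpph1 (0.23). That scaling moved the median of all genes from 0.21 to 1.05 and 1.08 between tissues and from 0.01 to -0.04 for the knockout in liver. Small fold changes that changed sign when 1 library was left out are given as ranges. For the knockout in brain these were Mvp (-0.12 to 0.61), Parp4 (-0.40 to 0.25), Nsun2 (-0.08 to 0.04) and Srsf2 (-0.07 to 0.08). In liver they were Mvp (-0.04 to 0.20), Ssb (-0.02 to 0.08) and Srsf2 (-0.07 to 0.03). For the difference between tissues they were Mvp (-0.49 to 0.19), Tep1 (-0.30 to 0.04), Parp4 (-0.17 to 0.45), Ssb (-0.01 to 0.07) and Srsf2 (-0.09 to 0.04). For brain against liver it was Ssb, from -0.01 to 0.07 in wild type and from -0.06 to 0.02 in knockout. With 1 library left out, Vaultrc5 differed by -0.23 to -0.14 in brain, -1.69 to -1.54 in liver and -1.51 to -1.36 between tissues on log2(CPM + 1). A pseudocount of 0.1 made these -1.13, -4.45 and -3.32, and library totals -0.23, -1.37 and -1.14. With the replicate number as a block, the brain libraries (correlations of same-numbered libraries 0.75, 0.71 and -0.04) gave 0 called genes and Mvp at 0.21 ± 0.11, Tep1 at 0.21 ± 0.13 and Parp4 at -0.05 ± 0.14 (SE, edgeR adjusted p = 0.996 each). The block gave 2 called genes in liver, neither of this set, and changed no call among the protein genes.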
